A study of Mus musculus with 6 samples.

Results

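The intraflagellar transport A complex (IFT-A) was examined through the genes of its 6 subunits, Wdr35, Wdr19, Ift122, Ift140, Ttc21b and Ift43. The genes were taken by symbol from a table of 22933 mouse genes, and all 6 were found in it. The set was chosen by the deposited values of Wdr35 in these same 6 libraries, which differed between the groups, so the differences between the groups given here for the 6 genes are a description and carry no test. Total RNA, depleted of ribosomal RNA, came from mouse embryonic stem cells with floxed Ezh2 alleles (Ezh2 fl/fl). Ezh2 encodes the H3K27 methyltransferase of Polycomb repressive complex 2. The untreated group (n = 3 libraries) had no drug and is labelled wild type for Ezh2. The tamoxifen group (n = 3 libraries) had received 4-hydroxytamoxifen at 800 nM for 96 h, is labelled Ezh2 KO, and its RNA was taken 4 days after treatment. Both groups came from the floxed cells, and the tamoxifen libraries are labelled as the delta/delta state after treatment. Both were grown on gelatin in serum and knockout serum replacement with leukaemia inhibitory factor. No library of drug-treated cells without floxed Ezh2 was analysed here, so the drug and the loss of Ezh2 cannot be told apart. How the recombinase was supplied, whether the cells were 1 clone, and whether replicates were separate cultures are not given in the sources used here, so p-values measure only the spread between these libraries, which may be technical.

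The primary cilium is a membrane-covered, microtubule-based antenna built from the mother centriole and used to receive Hedgehog and other signals. Intraflagellar transport moves trains of protein complexes along it. IFT-B travels outward with kinesin-2, while IFT-A is needed for the return with dynein-2 and, together with the adaptor Tulp3, for bringing membrane receptors into the cilium. Within IFT-A, the products of Wdr19, Ift140 and Ift122 form the core, and those of Wdr35, Ttc21b and Ift43 are attached around it. Wdr35, Wdr19, Ift122 and Ift140 encode proteins with WD40 propellers followed by TPR repeats, Ttc21b encodes a TPR protein, and Ift43 encodes a small subunit. Mutations in these genes cause skeletal ciliopathies in humans.

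The libraries held between 2334448 and 5689666 reads recovered from the deposited values, which are normalized and not whole counts. Between any pair of libraries the Spearman correlation across genes lay between 0.946 and 0.970, with no library apart from the others on this measure. Ezh2 itself had values of 4165, 3620 and 3483 untreated and 2258, 2559 and 2609 after tamoxifen, with means of 3756 ± 361 and 2475 ± 190 (SD, n = 3 per group). On this scale every tamoxifen library was lower, but limma did not call it (log2 difference -0.60, adjusted p 0.195). Per 1000000 recovered reads Ezh2 stood at 180, 97.9 and 67.6 untreated and 72.0, 123 and 102 after tamoxifen, so the groups overlapped, and the log2 difference after median-of-ratios scaling was -0.40 (limma adjusted p 0.636). Whether reads outside the deleted exons were included is not given in the sources used here. Of 10 embryonic stem cell markers 0 were called by limma, where 0.195% of all genes were. On deposited values 2 were higher in every tamoxifen library, where 7.92% of all genes were: Tfcp2l1 (means 3542 and 5703) and Nanog (4855 and 7191). Both had an unadjusted p under 0.05, where 5.34% of all genes were higher. Zfp42 (892 and 743) was lower in every one, where 7.33% of all genes were. Per 1000000 recovered reads the groups of Nanog and Zfp42 overlapped, and those of Tfcp2l1 did not. The defining markers Pou5f1 (means 15813 and 14302) and Sox2 (14719 and 13571), named outside the rule for naming genes, were high in both groups and overlapped. All 8 primitive endoderm markers examined had higher values in every tamoxifen library than in any untreated one, where 7.92% of all genes did. Their summed value ran from 8652 to 10964 without tamoxifen and from 17796 to 22647 with it, none of the 8 was at 0, and 0 of 8 were called by limma on the deposited values, where 0.195% of all genes were. Of these, 7 were higher at an unadjusted p under 0.05, where 5.34% of all genes were. On recovered reads after median-of-ratios scaling 7 endoderm markers were tested, those with at least 10 reads on average. Of those 1 was called by limma, where 0.0676% of genes were. The summed value of 8 fibroblast feeder markers overlapped between the groups, at 638 to 1066 and 830 to 1260, with Lum at 0 in all libraries. Of the 6 tested, 0 were called. Among them 2 were higher in every tamoxifen library, where 7.92% of all genes were. Both had an unadjusted p under 0.05, where 5.34% of all genes were higher. They were Fbln2 (means 94.5 and 198) and Postn, at 0 in the untreated libraries and on 0.833 reads per library on average. Differences of the 6 tested feeder markers were 4 above 0 and 2 below. Those below were Col3a1 (means 62.7 and 15.8, on 1.5 reads on average) and Thy1 (517 and 422), and the groups of both overlapped. Among 10 motile multiciliated cell markers found in the table, the sum also overlapped, at 2063 to 3049 and 1691 to 3022. Of the 9 tested, 5 differences were above 0 and 4 below, so opposite changes can cancel in this sum. Foxj1 (means 452 and 995) had an unadjusted p under 0.05, where 5.34% of all genes were higher, and Hydin had means of 1359 and 944. The groups of both overlapped. The part of the endoderm markers in the results below was not tested, and in bulk RNA a change in the number of cells of a type and a change in RNA per cell cannot be told apart.

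Wdr35 was the subunit gene that differed most between the groups. Its deposited values, in replicate order, were 1120, 1305 and 1177 without the drug against 4360, 2754 and 3348 with it. Every tamoxifen library was above every untreated library, and the lowest tamoxifen value was still more than double the highest untreated one. The mean went from 1200 ± 94.6 to 3487 ± 812 (SD, n = 3 per group), a ratio of 2.91. Taken as log2(value + 1), the difference (tamoxifen less untreated) was 1.51 ± 0.18 (SE), with a 95% interval from 1.07 to 1.96. Wdr35 had 257, 275 and 85 recovered reads in untreated libraries against 425, 297 and 623 in tamoxifen libraries. Per 1000000 recovered reads this came to 66.7, 48.3 and 31.7 against 110, 127 and 122, which again left a gap between the groups. On recovered reads scaled by the median of ratios the log2 difference was 1.09 ± 0.19, a smaller difference in the same direction. Wdr35 (ENSMUSG00000066643) lies on chromosome 12 from 8973892 to 9028847 on the plus strand of GRCm38, and no other protein-coding gene overlaps it.

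**Figure D1:**
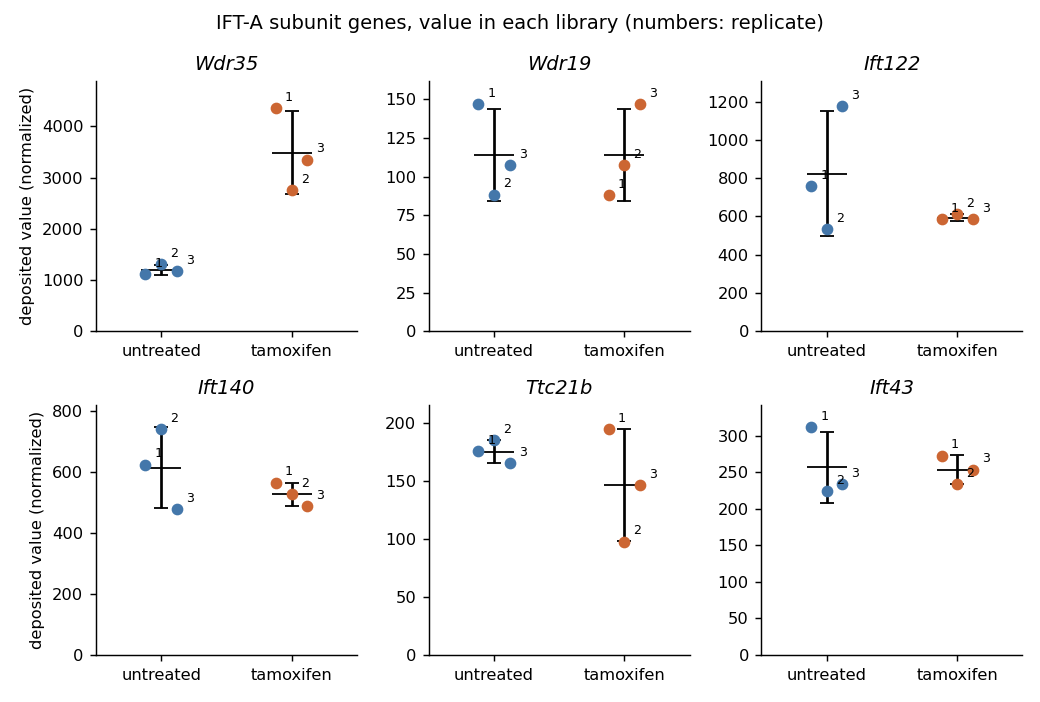
Deposited normalized value (y axis, from 0) of each IFT-A subunit gene in each library, untreated on the left and tamoxifen on the right of each panel, with the replicate number beside each point and the mean ± SD (n = 3) in black. The tamoxifen points of Wdr35 (2754 to 4360) lie above its untreated points (1120 to 1305), while the groups overlap for the other 5 genes.

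The sequence before the start is shown for Wdr35, the subunit gene that differed, and for Wdr19, a core subunit with a mean of 114 in both groups. It was taken from the RefSeq promoter table on GRCm38.p6, which matched 5 of the 6 members and did not hold Ift122. The stretches, on the plus strand and 5′ to 3′, are chr12:8973751-8973891 for Wdr35, which stops where the first GENCODE transcript begins, and chr5:65199446-65199695 for Wdr19. Capitals mark CCAAT boxes on either strand and an X-box, the palindrome bound by RFX factors at many ciliary genes.
Wdr35: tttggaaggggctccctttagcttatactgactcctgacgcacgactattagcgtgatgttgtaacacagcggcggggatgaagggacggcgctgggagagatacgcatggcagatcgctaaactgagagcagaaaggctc
Wdr19: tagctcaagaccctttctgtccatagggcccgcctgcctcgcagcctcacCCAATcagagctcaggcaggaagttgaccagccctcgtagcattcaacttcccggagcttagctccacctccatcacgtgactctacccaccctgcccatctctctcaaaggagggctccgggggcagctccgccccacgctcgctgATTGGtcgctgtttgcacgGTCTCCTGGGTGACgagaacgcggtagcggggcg
Windows from 250 bases before to 50 after the RefSeq start were searched on both strands. The X-box, searched as GTNNCC and GGNNAC with 1 to 3 bases between them, matched in the Wdr19 window (first base at -34) and in none of the other 4, where 3.5% of 32851 windows hold a match. CCAAT, present in 37.4% of windows, occurred at 1 place for Wdr35 (first base at -69, beyond the stretch shown), at 2 places each for Wdr19 and Ttc21b, at 4 for Ift140 and not in the Ift43 window. GTTGCC, a form of the left arm of the X-box, is present in 12.5% of windows and occurred after the start of Wdr35 (first base at 41) and, on the other strand, before that of Ift140 (-109). The p53 response element, searched as a pair of half-sites with 0 to 13 bases between them, matched 0.1% of windows and 0 of the 5. A match is a description of the letters in these windows only.

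The core subunit genes showed no such gap. Wdr19 (chromosome 5, 65199696 to 65260415, plus strand), whose product belongs to the IFT-A core, had untreated values of 147, 88.3 and 107 and tamoxifen values of 88.2, 108 and 147. The groups covered almost the same range, and the log2 difference was 0.00092 with a 95% interval from -0.92 to 0.92. Wdr19 had the fewest reads of the 6 genes, down to 16 in untreated replicate 3, a count whose exact Poisson 95% interval runs from 9.15 to 26.0. Ift140 (chromosome 17, 25016085 to 25099495, plus strand), the core subunit with WD40 and TPR domains that binds Wdr19 in the complex, had values of 623, 740 and 477 untreated and 565, 526 and 487 after tamoxifen. All 3 tamoxifen values of Ift140 fell within the untreated range, with a log2 difference of -0.20 ± 0.20 (SE). Ift122 (chromosome 6, 115853470 to 115926699, plus strand), the remaining core subunit, had 759, 536 and 1177 untreated and 584, 613 and 584 after tamoxifen. Its untreated libraries were spread more than those of any other member (824 ± 326, SD, n = 3), with replicate 3 highest on 84 reads, and its tamoxifen libraries were close together (594 ± 16.7). The log2 difference of Ift122 was -0.40 ± 0.29 (SE), and it was -0.10 without untreated replicate 3.

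The other peripheral subunit genes also overlapped between the groups. Ttc21b (chromosome 2, 66184327 to 66256617, minus strand), whose product is made of TPR repeats, had untreated values of 176, 186 and 166 and tamoxifen values of 195, 98.0 and 147. Tamoxifen replicate 2 was the low value and tamoxifen replicate 1 the highest of the 6, and the log2 difference was -0.31 ± 0.34 (SE). Without tamoxifen replicate 2 it was -0.052. Ift43 (chromosome 12, 86082541 to 86162459, plus strand), the small subunit, had 312, 224 and 234 untreated and 273, 234 and 254 after tamoxifen. All 3 tamoxifen values of Ift43 lay inside the untreated range, and the log2 difference was -0.0047 with a 95% interval from -0.57 to 0.56. The intervals of these 5 genes still allow changes of moderate size, the widest being that of Wdr19. They reach down to -1.10 for Ift122 and -1.14 for Ttc21b. The 1.51 of Wdr35 lies outside all of them, but that value led to the choice of the set. This is therefore a description and not a test.

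In the limma fit over 17427 genes with Benjamini-Hochberg adjustment, 0 of the 6 subunit genes were called at an adjusted p under 0.05, where 0.195% of all genes were (34 genes, 0.126% higher and 0.0689% lower after tamoxifen). At an unadjusted p under 0.05 there was 1 of the 6, Wdr35, where 9.34% of all genes were. With genes under 10 reads on average left out, Wdr35 was called and the other 5 were not, where 0.127% of 11843 genes were (0.11% higher, 0.0169% lower). With a pseudocount of 10 in place of 1 Wdr35 was also called, where 0.298% of all genes were (0.189% higher, 0.109% lower). On recovered reads after median-of-ratios scaling 0 of the 6 were called, where 0.0676% of genes were, all 8 of them higher (0.0676% higher, 0.0% lower). Groups did not overlap for 1 of the 6 members (Wdr35, tamoxifen higher), while 7.92% of all genes did not overlap in that direction, 7.33% in the other and 15.3% in either. Of the 6 differences 2 were above 0 and 4 below, with a median of -0.10 beside -0.0037 for all genes tested. On recovered reads scaled by library totals, where the median of all genes was 0.25, all 6 were above 0: Ift122 stood at 0.035, Ift140 at 0.20, Ttc21b at 0.25, Ift43 at 0.35, Wdr19 at 0.33 and Wdr35 at 1.35. Since the difference of Wdr35 led to the choice of the set, these counts are given as a description.

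**Figure D2:**
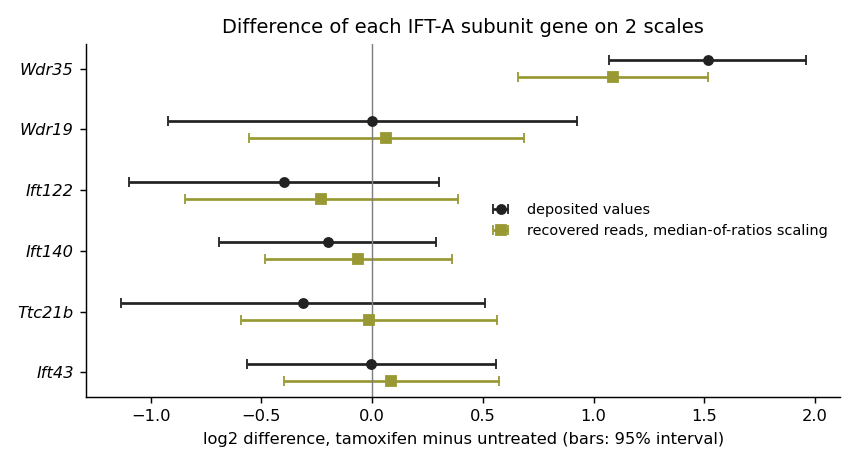
Log2 difference between tamoxifen and untreated (x axis, bars 95% intervals from limma) for each IFT-A subunit gene, from the deposited values (black circles) and from recovered reads with median-of-ratios scaling (olive squares). The interval of Wdr35 lies above 0 on both scales (1.51 and 1.09), and those of the other 5 genes include 0 on both.

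Levels of the subunit genes were compared with each other per length, a comparison that played no part in choosing them. Recovered reads per kilobase of merged exons per 1000000 reads were used for this, since the ratio of deposited value to recovered reads differed from gene to gene. Over all 6 libraries the order was Wdr35 (11.6 ± 5.60, SD, n = 6), Ift43 (8.43 ± 1.89), Ift140 (2.99 ± 0.666), Ift122 (2.74 ± 0.537), Ttc21b (1.32 ± 0.377) and Wdr19 (0.916 ± 0.354). By these means the peripheral subunit genes Wdr35 and Ift43 were highest, the core genes Ift140 and Ift122 followed, and Ttc21b and Wdr19 were lowest. The neighbouring pairs tested were set by the order of these same means. Ift43 was above Ift140, Ift122 above Ttc21b, and Ttc21b above Wdr19 in 6 of 6 libraries, each with p = 0.03125 in a two-sided exact sign-flip permutation test over libraries, the smallest p that 6 libraries allow. After Benjamini-Hochberg adjustment over the 5 neighbouring pairs these became 0.0521, so 0 of the 5 pairs passed 0.05. Ift140 was above Ift122 in 5 of 6 (exact permutation p = 0.5625, adjusted 0.5625), so this pair did not differ beyond its spread. Wdr35 was below Ift43 in 3 of 3 untreated and above it in 3 of 3 tamoxifen libraries. The test over all 6 libraries (exact permutation p = 0.25, adjusted 0.3125) pools these opposite orders and says nothing about that pair.

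The order of the means of Wdr35 and Ift43 was not the same in both groups, a difference that includes the contrast used to choose the set and was not tested. In the untreated libraries Ift43 stood at 7.47 ± 2.08 and Wdr35 at 6.73 ± 2.40 on this scale (SD, n = 3). In the tamoxifen libraries they stood at 9.38 ± 1.38 and 16.5 ± 1.18. Wdr35 made up 32.3%, 32.0% and 26.9% of the summed length-adjusted level of the 6 genes without the drug and 51.0%, 48.4% and 45.7% with it. Every tamoxifen library had a larger Wdr35 share than any untreated library. The summed level of the other 5 genes was 19.2, 14.1 and 11.9 without the drug and 14.6, 18.7 and 19.9 with it, so it overlapped between the groups. With coding length in place of merged exons, Ift122 and Ift140 changed places and the other 4 genes kept theirs. Whether reads were counted over exons only is not given in the sources used here.

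**Figure D3:**
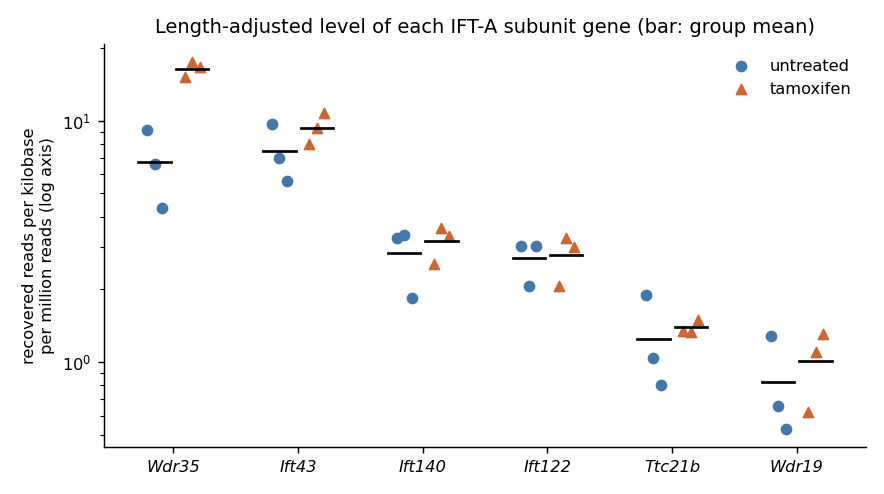
Recovered reads per kilobase of merged exons per 1000000 reads (y axis, log scale) for the 6 subunit genes, ordered by their mean over 6 libraries, with untreated libraries as circles, tamoxifen libraries as triangles and group means as bars. Wdr35 and Ift43 are highest, and only Wdr35 has its tamoxifen points (group mean 16.5) clear of its untreated points (group mean 6.73).

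The nearest genes on either side of each subunit gene were examined next. Matn3, which encodes the cartilage matrix protein matrilin-3 and ends 1864 bases before Wdr35, had values of 117, 137 and 146 untreated and 97.7, 78.2 and 98.0 after tamoxifen. These deposited values of Matn3, on 12 to 32 reads, were lower in each tamoxifen library, as were 7.33% of all genes, and opposite to Wdr35. Their log2 difference was -0.54 ± 0.32 (SE), with a limma adjusted p of 0.660. On recovered reads scaled by library totals the groups of Matn3 overlapped. Ttc32, which encodes a TPR protein and starts 1150 bases after the end of Wdr35, had 398, 447 and 386 untreated and 260, 427 and 379 after tamoxifen, on 8 to 35 reads. Its groups overlapped, with a log2 difference of -0.23 ± 0.24 and a limma adjusted p of 0.770. Of the 12 nearest protein-coding neighbours of the 6 members 11 were tested, and limma called 0 of them on deposited values and 0 of the 8 with at least 10 reads on recovered reads, with 0 in either fit at an unadjusted p under 0.05. Over all genes 0.195% were called and 9.34% had an unadjusted p under 0.05, so with 11 genes these counts of 0 are near the background. The DNA repair gene Mbd4 starts 99 bases from Ift122 on the opposite strand and stood at -0.24 on the log2 scale, and Telo2, 75 bases beyond Ift140, stood at -0.036. Tmem204 lies within Ift140 on the opposite strand and had 0.167 reads per library on average. Whether counting used the strand is not stated.

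The rest of the ciliary machinery was examined through 10 lists of partner genes. Together they held 122 tested genes, of which limma called 0 on deposited values, 0 with genes under 10 reads left out and 0 on recovered reads. Over all genes the shares called in these fits were 0.195%, 0.127% and 0.0676%, so these counts of 0 are near the background. At an unadjusted p under 0.05 there were 4 higher and 8 lower, or 12 of 122, where 9.34% of all genes tested were under that p (5.34% higher, 3.99% lower). Groups did not overlap for 3 genes with tamoxifen higher and 15 with tamoxifen lower, 14.8% of the 122 beside 15.3% of all genes. By direction these were 2.46% higher beside 7.92% of all genes and 12.3% lower beside 7.33%, on deposited values. The median log2 difference of the 122 was -0.13 on deposited values, beside -0.0037 for all genes. On recovered reads scaled by the median of ratios it was -0.059 over the 104 genes. The 11843 genes of that fit had a median of -0.011. Scaling recovered reads by library totals put the median of all genes at 0.25 and those of 9 of the 10 lists above 0, the exception being the tubby family at -0.079. List medians below are therefore on deposited values, with the value under that scaling after a slash. The latter used only genes with at least 10 reads on average, such as 15 of the 18 IFT-B genes and 8 of the 12 regulators. The 2 medians can thus differ in genes as well as in scaling. Genes with a larger log2 difference than Wdr35 numbered 4, and 2 of these had at least 10 reads on average, Trp73 (1.96) and Hspb11 (2.27). Both overlapped between groups on deposited values, and Hspb11, chosen after its values were seen, had 0 reads in untreated replicate 3 and 8 to 30 in the other libraries.

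IFT-B, the partner complex of outward transport, had 18 tested subunits with a median of -0.10 / 0.18, and 12 of the 18 lay below 0 on deposited values. Its members Cluap1 (-0.49), Ift81 (-0.45) and Ift172 (-0.27) had the smallest p among those with at least 10 reads, with limma adjusted p of 0.601 or more. The 3 Ttc30 genes of IFT-B are close copies of each other, so their reads may be shared. Among the kinesin-2 motor genes Kif3c was lower in every tamoxifen library (493 ± 30.9 against 273 ± 38.7, SD, n = 3, limma adjusted p 0.257), and the subunits Kif3a (0.11) and Kif3b (0.13) of the main anterograde motor stood near 0, with a list median of 0.11 / 0.45. In dynein-2, the motor of the return journey that IFT-A serves, the intermediate chain gene Wdr34 stood at -0.40, the heavy chain gene Dync2h1 at -0.16 and Dync2li1 at 0.39, with limma adjusted p of 0.475 or more and a list median of -0.16 / 0.11. Dync2h1 had the opposite sign on recovered reads after median-of-ratios scaling (0.16).

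The genes that work with IFT-A in receptor entry were also not called, where 0.195% of all genes were. Tulp3, the tubby-family adaptor that IFT-A carries into the cilium, had 1343, 604 and 1712 untreated and 1207, 798 and 1129 after tamoxifen. Its groups overlapped, and the log2 difference was -0.12 ± 0.40 (SE) with a limma adjusted p of 0.947. Tulp2 (-0.85) and Tub (-0.90) of the same family had limma adjusted p of 0.542 and 0.766, and the list median was -0.18 / -0.079. Among ciliary membrane cargo, Arl13b, a small GTPase of the ciliary membrane, had 546, 575 and 263 untreated and 993, 720 and 935 after tamoxifen. Every tamoxifen library of Arl13b was above every untreated one on deposited values, though not per 1000000 recovered reads, with a log2 difference of 1.01 ± 0.34 and a limma adjusted p of 0.467. Pkd1, which encodes polycystin-1, stood at 0.49 (limma adjusted p 0.414) and Adcy3 at -0.51 (0.675), with a list median of -0.12 / 0.27. The BBSome is the coat that carries receptors out of the cilium, and its list also held chaperonins such as Bbs10. Bbs2 (-0.53), Bbs9 (-0.59) and Bbs10 (-0.23) were all below 0, with limma adjusted p of 0.529 or more. In that list 9 of 12 tested genes were below 0 on deposited values, with a median of -0.18 / 0.29.

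The transition zone, the gate at the base of the cilium, had 24 tested genes with a median of -0.23 / 0.091, of which 19 were below 0 on deposited values. Tmem237 (-0.57) and Invs (-0.64) were lower and Tctn1 (0.58) higher in each tamoxifen library on deposited values, with limma adjusted p of 0.492, 0.528 and 0.494. Per 1000000 recovered reads the groups of Tmem237 and Invs overlapped, and the log2 difference of Invs after median-of-ratios scaling was -0.25. Among 15 tested ciliogenesis genes the median was 0.042 / 0.35, with Cep97, a suppressor of cilium assembly, at -0.68 (limma adjusted p 0.401), Rab11a at 0.53 and Ccp110 at 0.44. Hedgehog genes, whose signalling depends on IFT, had a median of -0.21 / 0.19 over 17 tested members, 13 of them below 0 on deposited values. The receptor and target gene Ptch1 (-0.59), the ciliary base gene Evc (-0.95) and the co-receptor gene Boc (-1.49) had the smallest p among those with at least 10 reads on average, with limma adjusted p of 0.545, 0.318 and 0.603. Ciliary gene regulators had a median of 0.15 / 0.53 over 12 tested genes, with Myb at -1.30, Foxj1 at 1.30 on 10.5 reads on average and Trp73 at 1.96, none called (limma adjusted p 0.496 to 0.530).

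**Figure D4:**
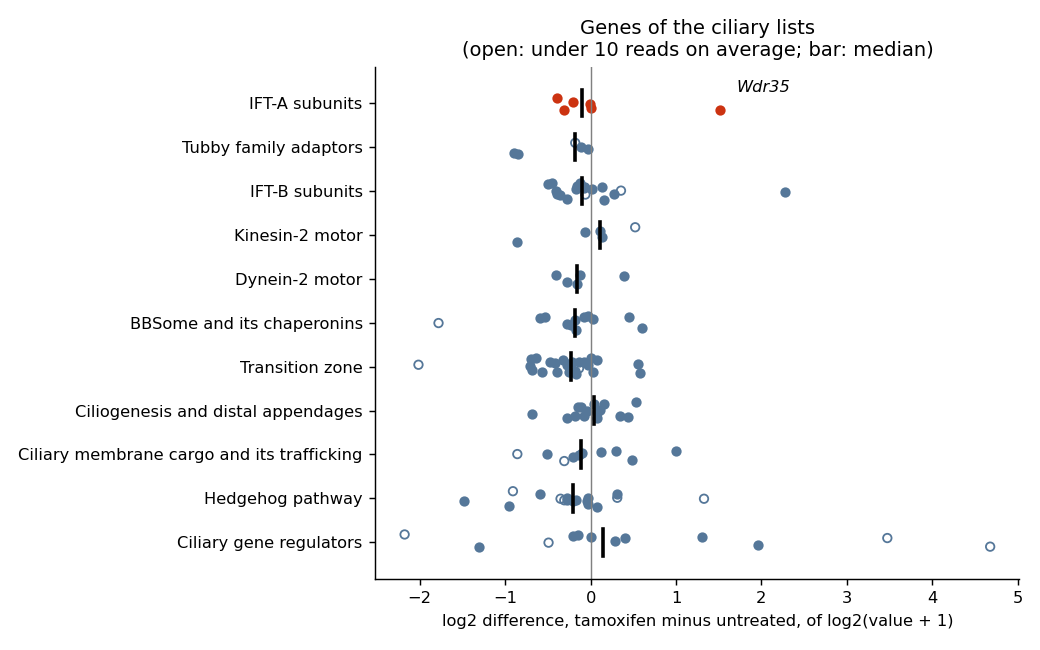
Log2 difference between tamoxifen and untreated (x axis) of every tested gene in the IFT-A set (red) and 10 lists of other ciliary genes (blue), with open circles for genes under 10 reads on average and black bars for list medians. The medians of the other lists lie between -0.23 and 0.15 on this scale, and Wdr35 at 1.51 stands to the right of all other IFT-A genes.

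The profile of Wdr35 over the 6 libraries was set against 11080 other genes with a symbol and at least 10 reads on average. The highest Pearson correlations of log2(value + 1) were those of Phlda3 (0.996), Tpst2 (0.995), Ano3 (0.994), Dsp (0.993), Pth1r (0.991) and Sdc4 (0.989). All 6 share with Wdr35 the same libraries. On deposited values, tamoxifen replicate 1 was the highest and tamoxifen replicate 2 the lowest of the tamoxifen group for each of these genes and Wdr35. This order was not kept on recovered reads scaled by library totals. There tamoxifen replicate 2 was highest of that group for Wdr35 and Ano3, and tamoxifen replicate 3 for Phlda3, Tpst2, Dsp, Pth1r and Sdc4. The correlations are for deposited values only. Phlda3, a gene for a pleckstrin-homology protein that restrains Akt, had 2080, 2208 and 2310 untreated and 5613, 4084 and 4748 after tamoxifen. Sdc4, which encodes the heparan sulfate proteoglycan syndecan-4, had 2092, 2277 and 2529 against 8310, 4515 and 6073. Dsp encodes desmoplakin of the desmosome and had a log2 difference of 1.39, Ano3 encodes an anoctamin (1.31 on deposited values and 2.32 on recovered reads after median-of-ratios scaling, where limma called it with an adjusted p of 0.0076), Pth1r a parathyroid hormone receptor (0.94), and Tpst2 a tyrosylprotein sulfotransferase, with a log2 difference of 0.24. Likeness in this measure concerns the shape of the profile, which includes the group difference of Wdr35 that led to the choice of the set. The size of the difference varied from 0.24 to 1.41 among the 6 on deposited values and from 0.11 to 2.32 on recovered reads.

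The other IFT-A genes were far from Wdr35 in that order. Ift43 ranked 5209 of 11080 with a correlation of 0.020, Wdr19 ranked 6227 (-0.13), Ttc21b 6964 (-0.24), Ift140 7828 (-0.37) and Ift122 9104 (-0.55). Between the other members the correlations over 6 libraries ran from -0.48 for Ift122 with Ift140 to 0.52 for Wdr19 with Ift43. These values rest on 6 points that share depth and normalization and are given as a description. Correlations with Wdr35 also include the group difference that led to the choice of the set. The ranks of the other members therefore restate that difference in part and are no separate support.

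**Figure D5:**
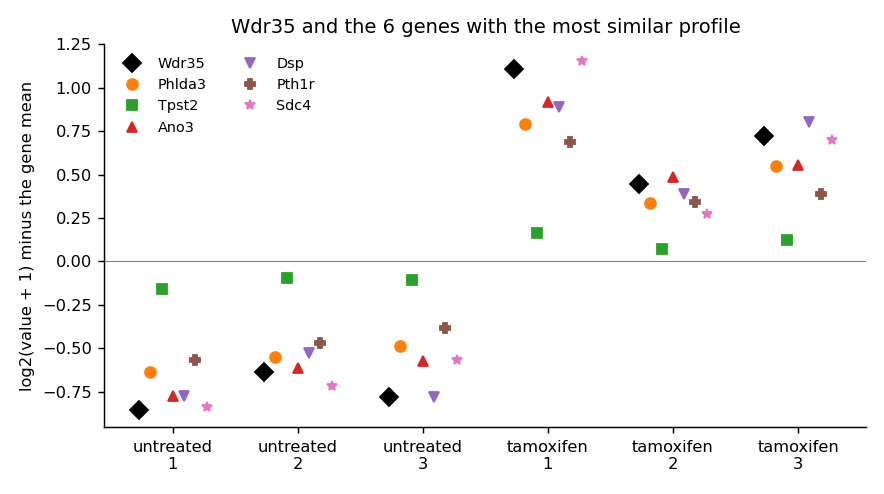
Log2(value + 1) minus the gene's own mean over the 6 libraries (y axis) in each library (x axis) for Wdr35 (black diamonds) and the 6 genes whose profiles correlated best with it. Each gene is below its mean in the 3 untreated libraries and above it in the 3 tamoxifen libraries, with Tpst2 covering the smallest range (log2 difference 0.24) and Wdr35 (1.51) the largest group difference of the 7.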

How the data were processed

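The 6 members and all gene lists were chosen with earlier results of these data known. TopHat2, bedtools, DESeq2 and build mm9 are named, without versions, per the submitters' processing notes; annotation, strand setting and counting rule are not given in the sources used here. The authors deposited a normalized signal per gene and library. All 100305 deposited values above 0 equalled 9.73 × k × (m + 0.1) / (k + 0.1) with whole k and m (largest relative misfit 5.11e-15), and k was taken as the read count; 98.8% had 1 solution, and for others the choice used that gene in other libraries or the ratio nearest 1. A planned signal test was kept: limma 3.58.1 (R 4.3.3, trend) on log2(value + 1) where the mean value reached 10, over all 6 libraries with group as the only term. The added 1 is small beside the scale of 9.73, so low genes with a library at 0 reads can show large log2 differences. Hspb11, with 0 reads in untreated replicate 3, stood at 2.27 on deposited values. It stood at 1.42 on recovered reads after median-of-ratios scaling. Called means a Benjamini-Hochberg adjusted p below 0.05 over all genes tested. Symbols, positions and lengths came from GENCODE vM21 (GRCm38) by identifier, for 20273 genes. Genes named by rule were the members, Ezh2, the nearest protein-coding neighbours, the 6 genes most correlated with Wdr35, and from each list any called gene and the 3 of smallest p with at least 10 reads on average; marker lists are given mainly by counts and sums. Alternatives covered the pseudocount, filters, scaling, recovered reads, a replicate block and leaving out each library. Other steps used pandas 2.3.3 and numpy 2.4.6 under Python 3.11.15. The solver and the fit were tested on simulated data.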

Additional observations from a re-analysis of the deposited data

How the results depend on the processing

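Precision is limited by 3 libraries per group and by 16 to 623 reads per member and library. Counting intervals cover counting error only. The log2 difference of Wdr35 stayed between 1.09 and 1.67 over 13 alternatives. It was 1.09 on recovered reads with median-of-ratios scaling, an alternative chosen after seeing the data. The number of members called was 1, Wdr35, with a pseudocount of 10 and with genes under 10 reads left out, and 0 in the other 11 alternatives. Over all genes 34 were called, 52 with a pseudocount of 10, 52 with no filter on low values, 15 once genes under 10 reads were left out, 13 on recovered reads scaled by totals, 8 on recovered reads with median-of-ratios scaling and 32 to 56 with 1 library left out, the highest without untreated replicate 2. Recovered reads scaled by library totals moved the median of all genes to 0.25. There Ift122 stood at 0.035, Ift140 at 0.20, Ttc21b at 0.25 and Ift43 at 0.35, and list medians at 0.18 (IFT-B), 0.45 (kinesin-2), 0.11 (dynein-2), 0.29 (BBSome), 0.091 (transition zone), 0.35 (ciliogenesis), 0.27 (membrane cargo), 0.19 (Hedgehog) and 0.53 (regulators). With median-of-ratios scaling of recovered reads the BBSome median was 0.029 and the Hedgehog median -0.077. With 1 library left out, medians ran from -0.56 to -0.13 (tubby family), -0.27 to -0.011 (IFT-B), -0.28 to -0.12 (BBSome), -0.13 to 0.18 (ciliogenesis) and -0.20 to 0.10 (membrane cargo). Medians on recovered reads, of lists and of all genes, covered only genes with at least 10 reads on average. The cause of these shifts was not tested.

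Labels number the replicates 1 to 3 in both groups, but the deviations of same-numbered libraries correlated at -0.0072, -0.049 and 0.0048. No library correlated best with the library of its own number in the other group, so the numbers were not taken as pairs. With a replicate block 0 genes were called. With coding length Ift122 ranked 3 and Ift140 ranked 4 in level, and in the untreated libraries alone Ift43 ranked 1 and Wdr35 ranked 2.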
